A study of Mus musculus with 8 samples.

Results

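Myosin light chains and the kinases that phosphorylate them were followed as 8 genes, Mylpf, Myl1, Myl2, Myl3, Myl6, Myl6b, Mylk2 and Mylk4, chosen by name from the 54091 genes of the table. All 8 were found, and all 8 had at least 10 normalized reads in at least 4 libraries, so all were tested. The libraries came from the white quadriceps of chow-fed male mice aged 11 to 14 weeks. Of the 8 animals, 4 were Acot2 mKO, with a CKM-driven Cre recombinase and Acot2 deleted in muscle, and 4 were Loxp/Loxp controls, whose genotype label names no Cre. As labelled, the groups therefore differed in the recombinase as well as in Acot2, and cells of the tissue that do not use the Ckm promoter kept the gene. Acot2, the mitochondrial long-chain acyl-CoA thioesterase that was targeted, held 42.8 to 53.7 normalized reads in Acot2 mKO and 149 to 251 in loxP control libraries, with no overlap.

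Each myosin head of a muscle fibre carries an essential and a regulatory light chain, which wrap around and stiffen its lever arm. Fast fibres use the regulatory chain Mylpf and the essential chain Myl1, whereas slow fibres use Myl2 and Myl3, which are also the chains of the heart ventricle. Skeletal muscle light chain kinase, the product of Mylk2, is switched on by calcium and calmodulin and phosphorylates the regulatory chain. That phosphorylation raises the force of later twitches, above all in fast muscle, and myosin phosphatase reverses it.

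A normalized read is a read divided by the authors' factor for the library, so values can be compared between libraries. Recovered totals ran from 30415429 to 48834283 reads in Acot2 mKO and from 33112406 to 36234859 in loxP control libraries. The fast myosin heavy chain Myh4 held 2521585 to 3094553 normalized reads in Acot2 mKO and 2743525 to 3400934 in loxP control libraries, and the slow Myh7 at most 0.256% of the adult heavy chain level per kilobase. Adipocyte markers were high in loxP control replicates 2 and 3, and slow fibre genes in Acot2 mKO replicates 3 and 4. The labels name no batch and do not say whether animals shared a litter. The data are bulk RNA, in which fewer fibres of a type and less RNA per fibre cannot be told apart.

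RefSeq start-site windows, from 250 bases before to 50 bases after the start on GRCm38.p6, were listed for 7 of the 8 genes. The windows of the fast essential chain, the slow essential chain, the fast regulatory chain and Mylk4 are shown. They were chosen because the results turn on the contrast between the steady fast chains, the variable slow chain and the more variable kinase among the 8 genes. Capitals mark matches on either strand to the E-box CANNTG, the M-CAT element CATTCC, the TATA box TATAAA, the MEF2 motif and the CArG motif. In these windows no match overlapped a match of another motif.
Myl1 (chr1:66945007-66945306, minus strand): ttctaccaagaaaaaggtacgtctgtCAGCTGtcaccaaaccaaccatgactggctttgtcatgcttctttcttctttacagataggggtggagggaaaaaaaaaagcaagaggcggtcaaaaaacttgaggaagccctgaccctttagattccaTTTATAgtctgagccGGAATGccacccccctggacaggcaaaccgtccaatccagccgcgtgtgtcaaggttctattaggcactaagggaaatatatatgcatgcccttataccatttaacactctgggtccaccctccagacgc
Myl3 (chr9:110763428-110763727, plus strand): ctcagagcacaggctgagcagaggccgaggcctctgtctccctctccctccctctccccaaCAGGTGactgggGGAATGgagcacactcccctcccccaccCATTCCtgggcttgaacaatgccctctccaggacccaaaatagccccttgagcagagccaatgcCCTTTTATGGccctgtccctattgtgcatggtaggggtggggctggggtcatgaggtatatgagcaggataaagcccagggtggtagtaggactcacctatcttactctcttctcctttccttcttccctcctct
Mylpf (chr7:127211358-127211657, plus strand): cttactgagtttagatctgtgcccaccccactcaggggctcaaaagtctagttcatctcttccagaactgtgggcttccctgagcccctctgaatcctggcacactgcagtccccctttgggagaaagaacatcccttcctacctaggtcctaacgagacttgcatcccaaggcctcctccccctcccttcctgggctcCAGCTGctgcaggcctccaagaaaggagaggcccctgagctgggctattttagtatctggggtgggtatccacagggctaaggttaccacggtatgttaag
Mylk4 (chr13:32783915-32784214, minus strand): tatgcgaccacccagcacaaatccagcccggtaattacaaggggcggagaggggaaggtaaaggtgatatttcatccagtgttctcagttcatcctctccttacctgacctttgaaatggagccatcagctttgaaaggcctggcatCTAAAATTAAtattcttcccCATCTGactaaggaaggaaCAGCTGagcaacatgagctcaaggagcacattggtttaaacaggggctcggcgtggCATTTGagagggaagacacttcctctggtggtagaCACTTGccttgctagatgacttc
The slow Myl3 window held 1 E-box at position -189 from the start, 2 M-CAT elements at -177 and -149 and 1 CArG motif at -85. The Myl1 window held 1 E-box at -224, 1 TATA box at -95 and 1 M-CAT element at -80, and the Mylpf window 1 E-box at -51. The Mylk4 window held a MEF2 motif at -103 and 4 E-boxes. Of the 32851 windows of this length in the reference, 72.3% held an E-box, 14.7% an M-CAT element, 13.6% a TATA box, 3.19% a MEF2 motif and 1.63% a CArG motif. A match describes the letters and is not a site of binding. The starts of these windows are RefSeq's: relative to the gene start in GENCODE M21 they lie 348 bases inside Myl1, 2718 inside Mylpf and 21817 inside Myl3, where GENCODE has further upstream exons, and at -10 for Mylk4. Both windows listed for Myl2 lie before its GENCODE gene start, at -8227 and -7762, and are not shown.

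The fast chains dominated. Per kilobase of the principal transcript, Myl1 averaged 326196 ± 39719 normalized reads in Acot2 mKO and 339133 ± 47625 in loxP control libraries, and Mylpf 302246 ± 22315 in Acot2 mKO and 298148 ± 19784 in loxP control libraries (SD, n = 4 each). Their library values overlapped, so the ranges of these 2 genes did not order them. Within libraries the ratio of Myl1 to Mylpf was above 1 in all but Acot2 mKO replicate 4, at 0.994, and at most 1.23. Next on the same scale came the kinases, with Mylk2 at 7960 ± 652 in Acot2 mKO and 8024 ± 946 in loxP control libraries and Mylk4 at 6907 ± 1908 in Acot2 mKO and 7532 ± 1492 in loxP control libraries, which overlapped as well. Myl6, the essential chain of smooth and non-muscle myosin, stood below them at 2093 ± 256 in Acot2 mKO and 2225 ± 119 in loxP control libraries. The slow pair came after it in the means, with Myl3 at 678 ± 759 in Acot2 mKO and 137 ± 192 in loxP control libraries and Myl2 at 654 ± 778 in Acot2 mKO and 101 ± 85.7 in loxP control libraries. Their spread ran across that of Myl6b, an essential chain of slow and non-muscle cells in humans, which averaged 33.0 ± 5.78 in Acot2 mKO and 32.2 ± 10.8 in loxP control libraries. Together the 8 genes took 1.40% to 1.66% of all reads in Acot2 mKO and 1.42% to 1.78% in loxP control libraries.

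**Figure D1:**
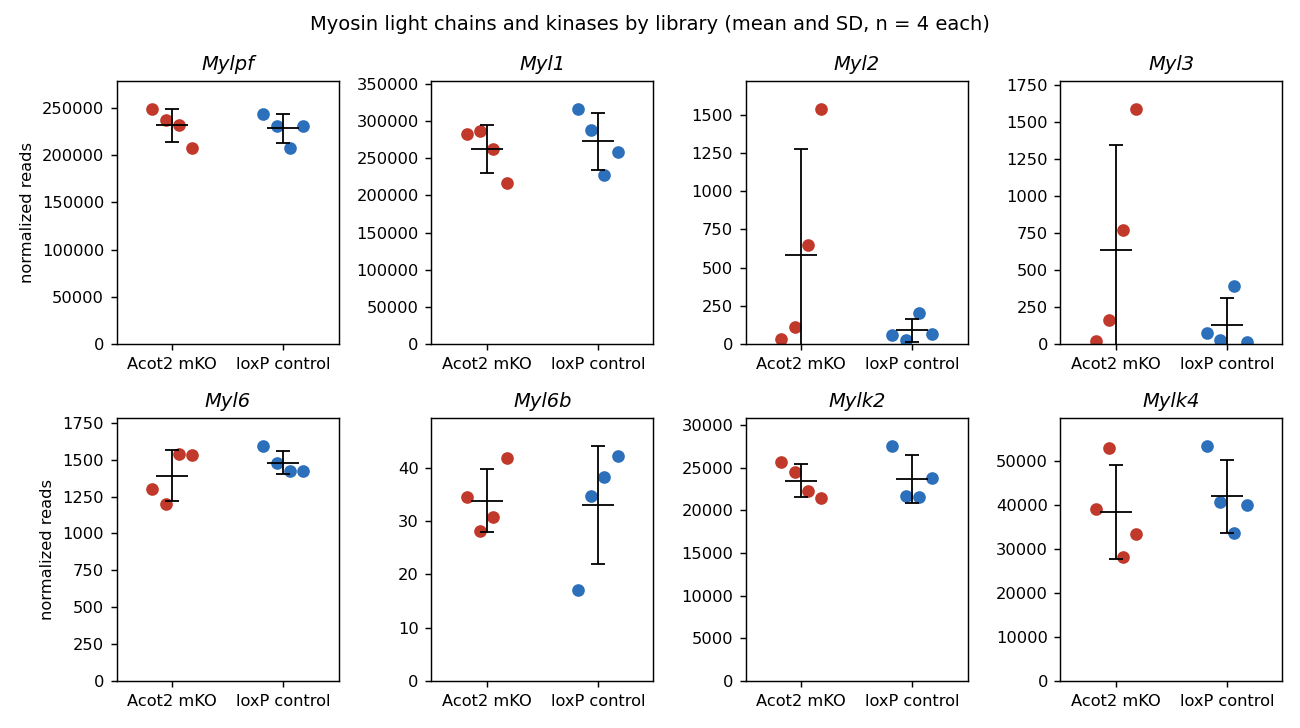
Normalized reads of the 8 genes in each library (vertical axes, linear from 0), Acot2 mKO in red and loxP control in blue, with the mean as a bar and the SD as whiskers (n = 4 each), which are cut off at 0. The groups overlap in every panel, and Myl2 and Myl3 reach 1535 and 1584 in Acot2 mKO replicate 4.

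None of the 8 genes passed the comparison of Acot2 mKO with loxP control muscle. In limma 0 of 8 had an adjusted p under 0.05, where 0.0147% of the 13638 tested genes were called, 0.00733% as higher and 0.00733% as lower in Acot2 mKO, and 0 of 8 had an unadjusted p under 0.05, where 2.91% of all tested genes did. The limma-voom fit on recovered reads also called 0 of 8. With 2 calls in the whole table, 0 of 8 is at the background. The 8 log2 differences had a median of 0.00552, against 0.00494 over all tested genes, with 4 above and 4 below 0. The groups overlapped for each of the 8 genes, whereas 1.92% of tested genes had groups that did not. The limma adjusted p was 0.9995 for each of the 8. In exact two-sided permutation tests over the 70 relabellings, where 4 against 4 libraries cannot go below 0.0286, the p-values ran from 0.257 for Myl2 and Myl3 to 0.943 for Mylk2.

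**Figure D2:**
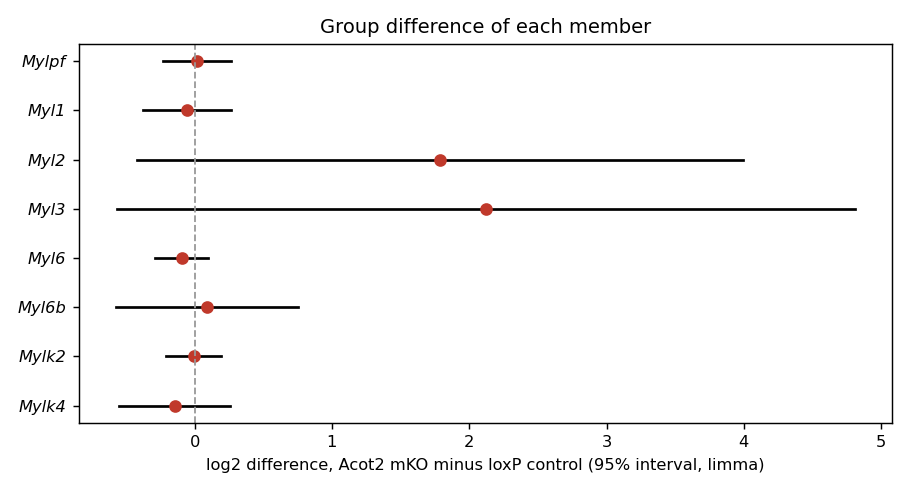
Log2 difference of each gene, Acot2 mKO minus loxP control (horizontal axis), with limma's 95% confidence interval as a line. Every interval spans 0, the interval of Mylk2 runs from -0.21 to 0.19, and that of Myl3 from -0.57 to 4.81.

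The fast regulatory chain Mylpf was the steadiest of the 8 genes. Its normalized reads were 248708, 236896, 232439 and 208039 in Acot2 mKO replicates 1 to 4, and 244148, 231234, 207693 and 230450 in loxP control replicates 1 to 4. The lowest library of each group lay at nearly the same level, and the highest Acot2 mKO library was just above the highest control. The log2 difference was 0.019 (SE 0.11, 95% confidence interval -0.23 to 0.27). Its SD over all 8 libraries was 0.096 on the log2 scale, below that of the median tested gene at 0.18. The gene (NCBI gene 17907) lies at chr7:127208890-127214298 on the plus strand of GRCm38, with 7 exons in the principal transcript, and no 50-base stretch of its transcripts occurs in a transcript of another gene.

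Myl1, the fast essential chain, had a wider spread. It had 282109, 286663, 262125 and 216843 normalized reads across Acot2 mKO replicates 1 to 4, and 315613, 288357, 226899 and 258426 in loxP control replicates 1 to 4. Acot2 mKO replicate 4 and loxP control replicate 3 were the lowest, and loxP control replicate 1 the highest. The log2 difference was -0.05 (SE 0.15, 95% confidence interval -0.37 to 0.27). The gene makes a long and a short chain from separate starts (LC1f and LC3f), which the table does not separate. Per kilobase, the ratio of Myl1 to Mylpf was 0.994 to 1.15 in Acot2 mKO and 1.04 to 1.23 in loxP control libraries. Myl1 (NCBI gene 17901) lies at chr1:66924295-66945404 on the minus strand. Of its 50-base stretches 11.7% also occur in the pseudogene Mylf-ps, which held 465 to 789 reads in any library, so the 2 cannot be fully separated.

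The slow regulatory chain Myl2 varied widely between the animals of each group. It had 32.8, 110, 649 and 1535 normalized reads across Acot2 mKO replicates 1 to 4, and 59.3, 30.2, 202 and 68.2 in loxP control replicates 1 to 4. Acot2 mKO replicates 3 and 4 stood above every control, while the 95% Poisson interval of Acot2 mKO replicate 1, 23.3 to 44.9, overlapped that of the lowest control, loxP control replicate 2, 19.9 to 44.0 (these intervals cover counting error only). Between the groups the log2 difference was 1.79 (SE 1.00, 95% confidence interval -0.42 to 4.00). The value moved both ways with the libraries left out, to 0.91 without Acot2 mKO replicate 4 and to 2.74 without Acot2 mKO replicate 1 (limma unadjusted p = 0.0070, adjusted p = 0.9974). Without Acot2 mKO replicates 3 and 4 it was -0.23. Leaving out a group's highest or lowest libraries moves its value by construction.

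Myl3, the slow essential chain, had the widest range of the 8 genes. It had 24.4, 163, 770 and 1584 normalized reads across Acot2 mKO replicates 1 to 4, and 76.4, 25.7, 395 and 16.2 in loxP control replicates 1 to 4. The highest library held 97.6 times the lowest. Acot2 mKO replicates 3 and 4 were again the highest and loxP control replicate 3 came next, while the lowest 3 libraries belonged to both groups. The log2 difference was 2.12 (SE 1.22, 95% confidence interval -0.57 to 4.81). It was 1.27 without Acot2 mKO replicate 4, 3.25 without Acot2 mKO replicate 1 (limma unadjusted p = 0.0096, adjusted p = 0.9974) and 3.02 without loxP control replicate 3 (limma unadjusted p = 0.026, adjusted p = 0.9245). Without Acot2 mKO replicates 3 and 4 it was 0.072. Among the 13638 tested genes, 99.94% had a smaller SD over the 8 libraries than Myl3 and 99.8% a smaller one than Myl2.

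As shares, the slow isoforms were a trace of each chain in every library. Per kilobase, Myl2 made up 0.0114%, 0.0400%, 0.240% and 0.632% of the Myl2 and Mylpf level in Acot2 mKO replicates 1 to 4, and 0.0209%, 0.0113%, 0.0835% and 0.0255% in loxP control replicates 1 to 4. Myl3 made up 0.00742%, 0.0486%, 0.251% and 0.622% of the Myl3 and Myl1 level in Acot2 mKO replicates 1 to 4, and 0.0208%, 0.00765%, 0.149% and 0.00538% in loxP control replicates 1 to 4. Acot2 mKO replicates 3 and 4 were highest in both shares, and the groups overlapped. The regulatory share averaged 0.231% ± 0.286 in Acot2 mKO and 0.0353% ± 0.0327 in loxP control libraries (SD, n = 4 each; exact two-sided permutation p = 0.229). The essential share averaged 0.232% ± 0.281 in Acot2 mKO and 0.0457% ± 0.0693 in loxP control libraries (SD, n = 4 each; exact two-sided permutation p = 0.229). The differences, 0.195 and 0.187 percentage points, were 0.0618 and 0.0566 without Acot2 mKO replicate 4 and 0.269 and 0.262 without Acot2 mKO replicate 1 (exact two-sided permutation p = 0.0571 for each). Without Acot2 mKO replicates 3 and 4 they were -0.0096 and -0.018 percentage points.

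**Figure D3:**
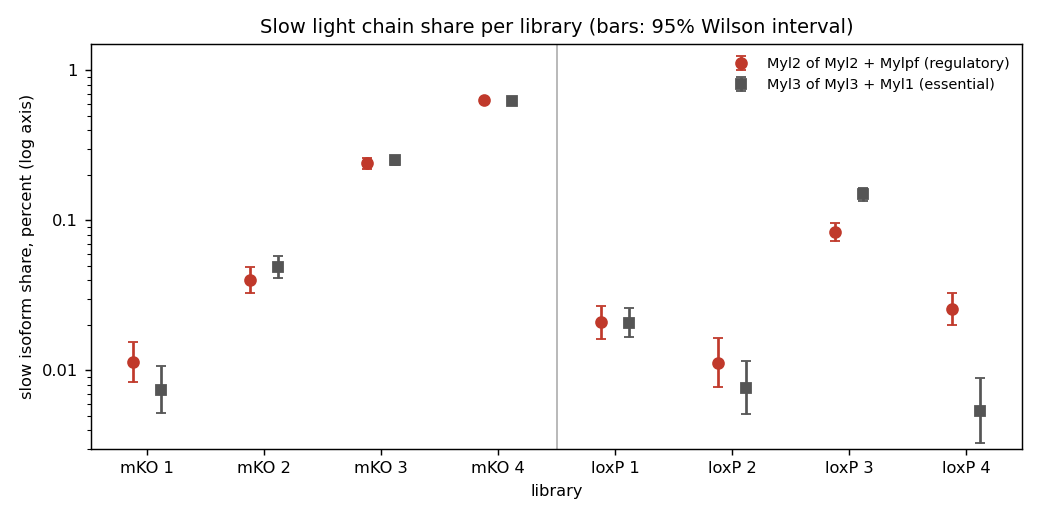
Share of the slow isoform in each library, per kilobase, in percent on a log axis, for the regulatory chain (red circles) and the essential chain (grey squares), with 95% Wilson intervals that cover counting error only. Acot2 mKO replicate 4 reaches 0.632% and 0.622%, and loxP control replicate 4 holds 0.0255% of the regulatory but 0.00538% of the essential chain.

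The 2 slow chains did not keep a fixed ratio. Per kilobase, the ratio of Myl3 to Myl2 was 0.705, 1.40, 1.13 and 0.979 in Acot2 mKO replicates 1 to 4, and 1.22, 0.808, 1.86 and 0.226 in loxP control replicates 1 to 4. It was highest in loxP control replicate 3 and lowest in replicate 4 of the same group. In loxP control replicate 4, 63 reads of Myl2 stood against 15 of Myl3, and the Wilson intervals of the shares were 0.0199% to 0.0326% for the regulatory chain and 0.00326% to 0.00888% for the essential chain. The intervals of loxP control replicate 3, 0.0730% to 0.0956% and 0.135% to 0.164%, were apart in the opposite direction.

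Nor did the slow chains keep step with Myh7, the slow heavy chain. Myh7 had 11.8, 35.5, 2133 and 7430 normalized reads across Acot2 mKO replicates 1 to 4, and 12.1, 7.83, 40.1 and 34.6 in loxP control replicates 1 to 4. Per kilobase, Myl2 stood at 1.45 and 2.13 times Myh7 in Acot2 mKO replicates 4 and 3, at 19.5 and 21.7 times in Acot2 mKO replicates 1 and 2, and at 13.8 to 35.2 times in loxP control libraries. Myh7 is the denominator of this ratio, so libraries high in Myh7 tend to a low ratio by construction. Myl3 stood at 1.42 to 30.5 times Myh7 in Acot2 mKO and at 3.12 to 65.5 times in loxP control libraries, the highest in loxP control replicate 3. That library had the highest Myh2, the heavy chain of fast oxidative fibres, with 73690 normalized reads, against 797 in loxP control replicate 2. LoxP control replicate 4 also had a high Myh2 of 50366 but the lowest Myl3, so Myl3 did not follow Myh2 in every library. In Acot2 mKO libraries Myh2 held 4409, 6512, 50678 and 51585 normalized reads in replicates 1 to 4.

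**Figure D4:**
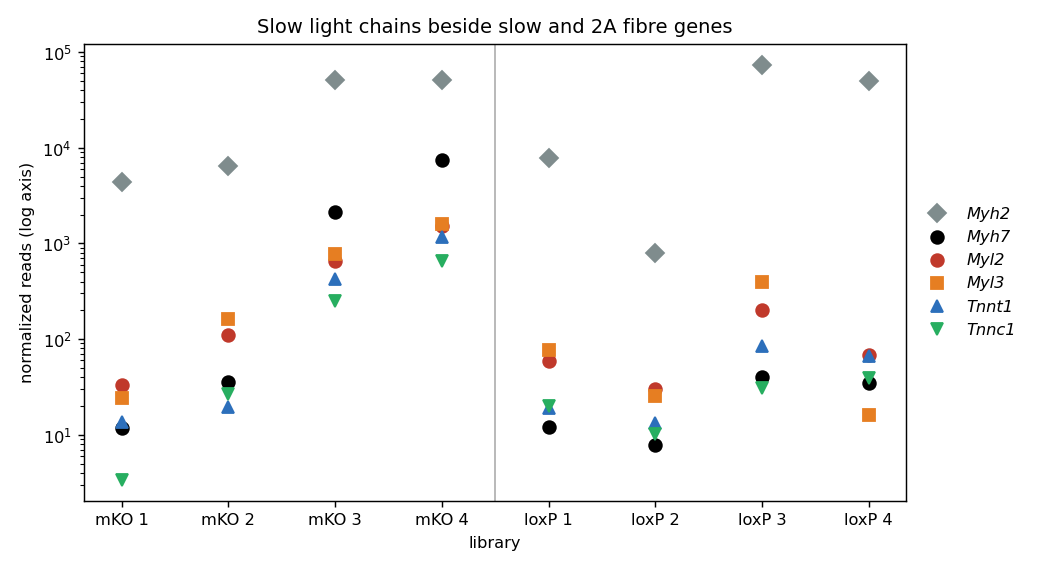
Normalized reads per library on a log axis for the slow light chains Myl2 and Myl3, the heavy chains Myh7 (slow) and Myh2 (fast oxidative) and the slow troponins Tnnt1 and Tnnc1. Myh7 stands above both light chains in Acot2 mKO replicates 3 and 4 and, among the other libraries, above Myl3 alone in loxP control replicate 4, and loxP control replicate 4 combines 50366 reads of Myh2 with 16.2 of Myl3.

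The profiles of the slow chains were compared with each other and with those of genes outside the 8. Likeness was the root-mean-square difference of log2 values over the 8 libraries, each gene centred on its own mean. Myl2 and Myl3 lay 0.84 apart. Outside the 8 genes, the nearest to Myl2 were Tnnc1 (0.69) and Tnnt1 (0.70), the slow troponins C and T, followed by Lrrn1 (1.20), Klhl34 (1.21) and Ldhb (1.21), the lactate dehydrogenase subunit of oxidative tissue. Tnni1, the slow troponin I, lay farther off at 1.32, but it was near the floor in several libraries. It had 0 normalized reads in Acot2 mKO replicate 1 and 2.01 in loxP control replicate 1, where small differences weigh heavily in log2 values. Its highest libraries were also Acot2 mKO replicates 3 and 4, with 170 and 557. Outside the 8, nearest to Myl3 were again Tnnc1 (1.33) and Tnnt1 (1.40), then Lrrn1 (1.61), Zscan18 (1.65) and Uchl1 (1.65). Tnnt1 had 13.5, 19.6, 420 and 1161 normalized reads across Acot2 mKO replicates 1 to 4, and 19.1, 13.4, 85.0 and 67.1 in loxP control replicates 1 to 4. Fast troponin C, Tnnc2, was the nearest gene outside the 8 to Mylpf (0.033), before Msrb3 and Zfyve9 (0.035 and 0.036). For genes that varied this little, a small difference is shared by many genes.

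The heart also expresses Myl2 and Myl3, and atrial muscle Myl7. Myl7 was at 0 in 7 libraries and held 4 recovered reads in Acot2 mKO replicate 2, and the atrial peptide gene Nppa held at most 7.04 normalized reads. Of the 5 heart markers 3 had enough reads for the test, and the summed level of all 5 was 174 to 1419 normalized reads in Acot2 mKO and 157 to 1342 in loxP control libraries. It was low in Acot2 mKO replicates 3 and 4, at 174 and 200, where Myl2 and Myl3 were highest. Summed markers of Schwann cells, tendon and fibroblasts were 2543, 8340 and 49409 normalized reads in Acot2 mKO replicate 3 and 2749, 13995 and 69753 in replicate 4. In the other 6 libraries they ran from 1450 to 2669, from 5756 to 10474 and from 40805 to 60709. Acot2 mKO replicate 4 was also the highest library for summed smooth muscle (7761, with Myl9 and Mylk), endothelial (6987) and macrophage markers (1812). It was not the highest for adipocyte (3387) or satellite cell and regeneration markers (507). The part of these cells in the slow chain levels was not tested.

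Reads of Myl2 and Myl3 could be told from those of the fast chains, since no 50-base stretch of either occurs in Mylpf or Myl1. Myl2 (NCBI gene 17906) lies at chr5:122100951-122113472 on the plus strand and overlaps Ccdc63 on the other strand, which held at most 3 reads in a library. Myl3 (NCBI gene 17897) lies at chr9:110741861-110769798 on the plus strand and overlaps Pth1r on the other strand, which held 16 to 41 reads. The libraries were stranded, but no source used here gives the strand setting of the counting.

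Mylk2 was steady across the libraries. It had 25655, 24502, 22311 and 21491 normalized reads across Acot2 mKO replicates 1 to 4, and 27576, 21703, 21609 and 23831 in loxP control replicates 1 to 4. LoxP control replicate 1 was the highest, and the other 3 controls lay within the range of the Acot2 mKO libraries. In limma the log2 difference was -0.0081 (SE 0.092, 95% confidence interval -0.21 to 0.19), the smallest in size of the 8. Mylk2 (NCBI gene 228785) lies at chr2:152911352-152923068 on the plus strand, with 12 exons.

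Mylk4 encodes a related kinase that is abundant in striated muscle. It had 39224, 52940, 28254 and 33502 normalized reads across Acot2 mKO replicates 1 to 4, and 53467, 40797, 33628 and 39954 in loxP control replicates 1 to 4. One library of each group stood high, Acot2 mKO replicate 2 and loxP control replicate 1, and Acot2 mKO replicate 3 was the lowest. The log2 difference was -0.14 (SE 0.18, 95% confidence interval -0.55 to 0.26), and 0.14 without Acot2 mKO replicates 3 and 4. Its SD over the libraries was 0.32 on the log2 scale, against 0.13 for Mylk2. Per kilobase, the ratio of Mylk4 to Mylk2 was 0.671 to 1.14 in Acot2 mKO and 0.824 to 1.03 in loxP control libraries, so neither kinase was the more abundant in every library. Mylk4 (NCBI gene 238564) lies at chr13:32700834-32783954 on the minus strand and overlaps Gm27342 on the other strand. Nearest to its profile outside the 8 genes were Tmem238 (0.093), Socs2 (0.10), an inhibitor of growth hormone signalling, and Lrrc51 (0.12).

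The libraries with high Mylk4 also had high levels of some genes of heart sarcomeres. Myh6, Tnnt2 and Tnni3, the heart forms of myosin heavy chain and of troponins T and I, were singled out after their values were seen. Their sum was 487, 1413, 174 and 200 normalized reads across Acot2 mKO replicates 1 to 4, and 1335, 611, 160 and 157 in loxP control replicates 1 to 4. The highest 2 libraries of this sum were the highest 2 of Mylk4, but loxP control replicate 4, with the lowest sum, had a Mylk4 near the middle. Mylk3, the heart kinase, had 10.1, 24.5, 1.14 and 4.25 normalized reads across Acot2 mKO replicates 1 to 4, and 16.1, 13.4, 6.69 and 1.08 in loxP control replicates 1 to 4. It was highest in the same 2 libraries, but all its values were low. Whether 16.1 differs from 13.4 beyond counting error was not tested.

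**Figure D5:**
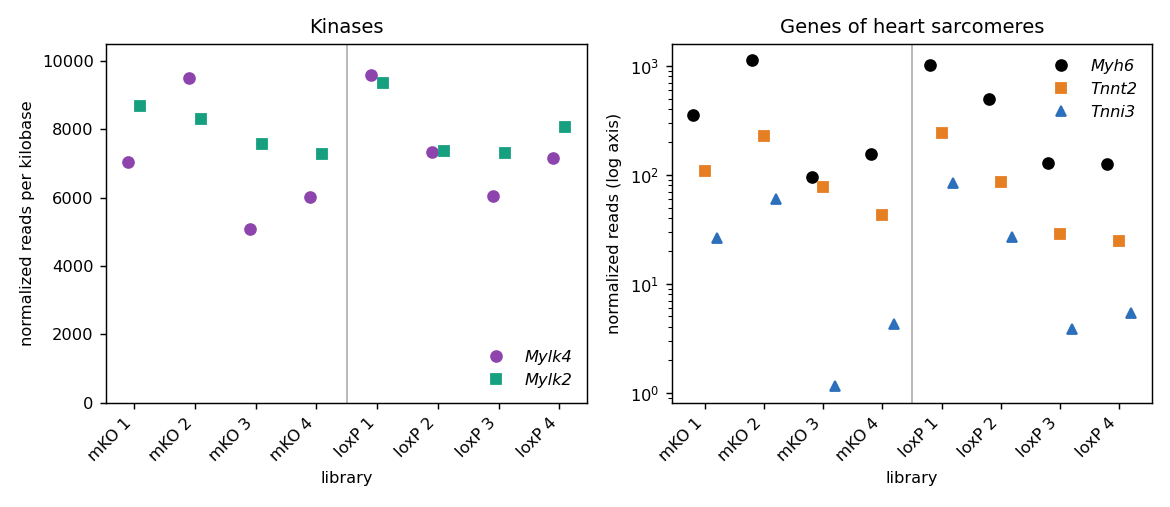
Left, normalized reads per kilobase of Mylk4 and Mylk2 in each library. Right, normalized reads of the heart sarcomere genes Myh6, Tnnt2 and Tnni3 on a log axis. Acot2 mKO replicate 2 and loxP control replicate 1 hold the highest Mylk4, 9503 and 9597 per kilobase, and the highest Myh6.

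Myl6 pairs with the regulatory chains of smooth and non-muscle myosin. It had 1300, 1198, 1542 and 1529 normalized reads across Acot2 mKO replicates 1 to 4, and 1593, 1476, 1426 and 1424 in loxP control replicates 1 to 4. Acot2 mKO replicates 1 and 2 lay below every control and replicates 3 and 4 within the control range. Between the groups the log2 difference was -0.095 (SE 0.088, 95% confidence interval -0.29 to 0.098). Of its 50-base stretches 8.38% occur in 5 other genes, among them the predicted genes Gm5526 and Gm10080, which held at most 5 and 4 reads in a library. Smooth muscle markers other than Myl9 and Mylk summed to 3720, 4503, 5034 and 5721 normalized reads across Acot2 mKO replicates 1 to 4, and to 4865 to 5591 in loxP control libraries. In the Acot2 mKO group, Myl6 was thus low where these markers were low, and the part of smooth muscle cells in its level was not tested. Of the 8 smooth muscle markers, Myl9 and Mylk included, 7 lay below 0, where 6588 of all 13638 tested genes did. In limma 0 of the 8 passed and 1, Cnn1 (calponin 1), had an unadjusted p under 0.05, where 2.91% of all tested genes did. The exact permutation p of Cnn1 was 0.0571, and its groups overlapped. Without Acot2 mKO replicates 3 and 4 the log2 difference of Myl6 was -0.24 (limma unadjusted p = 0.012, adjusted p = 0.9983). These were the highest Acot2 mKO libraries for Myl6, so leaving them out lowers the value by construction.

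Myl6b was near the limit of the depth. It held 41, 23, 27 and 59 recovered reads in Acot2 mKO replicates 1 to 4, and 17, 31, 40 and 39 in loxP control replicates 1 to 4. As normalized reads it averaged 33.8 ± 5.93 in Acot2 mKO and 33.1 ± 11.1 in loxP control libraries (SD, n = 4 each), and the log2 difference was 0.091 (SE 0.30, 95% confidence interval -0.57 to 0.76). The 95% Poisson interval of the lowest library, loxP control replicate 1, was 9.96 to 27.4 normalized reads. Myl6b (NCBI gene 216459, chr10:128494157-128498685) and Myl6 (NCBI gene 17904, chr10:128490860-128494145) lie on the minus strand with 11 bases between them, and per kilobase Myl6 stood at 56.4 to 77.1 times Myl6b in Acot2 mKO and at 52.1 to 144 times in loxP control libraries.

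Other light chains were at low levels in this muscle. Of 6 listed, 5 had enough reads, and in limma 0 of the 5 passed and 0 had an unadjusted p under 0.05. Myl12a, a regulatory chain of non-muscle myosin, was the most abundant of those with a length, at 1395 ± 259 normalized reads per kilobase in Acot2 mKO and 1356 ± 254 in loxP control libraries. Myl9, its smooth muscle counterpart, followed with 534 ± 125 in Acot2 mKO and 581 ± 66.0 in loxP control libraries (SD, n = 4 each). Myl4, the chain of fetal and atrial muscle, was at 89.0 ± 22.4 in Acot2 mKO and 82.6 ± 19.5 in loxP control libraries. Myl10 split the libraries, with 5.05, 11.0, 85.6 and 73.7 normalized reads across Acot2 mKO replicates 1 to 4, and 7.04, 12.3, 86.9 and 61.7 across loxP control replicates 1 to 4. Replicates 3 and 4 of both groups, the 4 libraries highest in Myl10, were also the 4 highest in Myh2, a likeness seen after the values were known. Myl12a split the same way, with 2957 to 3189 normalized reads in those 4 libraries and 2061 to 2376 in the others.

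The partners of the kinases did not pass either. Among the other kinases and calmodulins, 3 of 8 tested genes lay above 0 and 5 below, with a median log2 difference of -0.025, and for myosin phosphatase 3 of 7 lay above and 4 below, with a median of -0.015. In limma 0 genes of these lists passed and 0 had an unadjusted p under 0.05. Mylk, the kinase of smooth and non-muscle myosin, averaged 133 ± 19.5 normalized reads per kilobase in Acot2 mKO and 135 ± 6.34 in loxP control libraries (SD, n = 4 each). The phosphatase catalytic subunit Ppp1cb averaged 2635 ± 211 per kilobase in Acot2 mKO and 2500 ± 117 in loxP control libraries. Its muscle targeting subunit Ppp1r12b averaged 3308 ± 173 in Acot2 mKO and 3420 ± 114 in loxP control libraries, above Ppp1r12a, the broadly used targeting subunit, at 323 ± 16.7 in Acot2 mKO and 327 ± 32.1 in loxP control libraries.

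Sarcomeric heavy chains, which the light chains bind, were not called: 0 of 9 passed in limma and 1, Myh7, had an unadjusted p under 0.05. Myh1, a fast heavy chain, had 72600, 133482, 207621 and 224708 normalized reads across Acot2 mKO replicates 1 to 4, and 119090, 49067, 207420 and 173225 in loxP control replicates 1 to 4. The same libraries were high for Myh1 as for Myh2. Of 9 fast fibre partners, 5 lay above and 4 below 0, with a median log2 difference of 0.0017. All 9 slow fibre partners, Myh7 among them, lay above 0 with a median of 1.16, where 7050 of all 13638 tested genes lay above 0. For Csrp3, 1 of the 9, this held in log2 values only. Its mean was 258 normalized reads in Acot2 mKO and 454 in loxP control libraries, which ran from 2.24 to 1261. In limma 0 of the 9 passed and 1, again Myh7, had an unadjusted p under 0.05, where 2.91% of all tested genes did. The exact permutation p of Myh7 was 0.2, and its groups overlapped. Acot2 mKO replicates 3 and 4 had the highest summed level of this list, 8629 and 19115 normalized reads, against 2492 and 3270 in Acot2 mKO replicates 1 and 2 and 2427 to 4487 in loxP control libraries.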

How the data were processed

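Per the submitters' processing notes, FastQC, cutadapt, STAR, HTSeq, DESeq2 and GRCm38 were used, with no role or version given. The authors deposited values that fit log2(x + 1), x being scaled reads. With the log undone, 100% of values below 1000 reads lay within 0.1 of a whole multiple of a step that differed between libraries, and division by that step gave the recovered reads. RNA came from stranded libraries, per the labels. Lengths (APPRIS principal transcript) and coordinates were taken from GENCODE M21 on GRCm38, which may differ from the annotation the authors used, and start-site sequences from RefSeq (GRCm38.p6).

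A limma 3.58.1 fit in R 4.3.3, with trended variances, compared the groups on the log2 values of 13638 genes that reached 10 normalized reads in 4 or more libraries, with Benjamini-Hochberg adjustment over all of them and 0.05 as the threshold. Shares and single genes were compared with exact permutation tests. The limma fit was tested on simulated data. Alternatives covered pseudocounts, filters, TMM and quantile scaling, library weights, limma-voom on recovered reads, a replicate block and left-out libraries. Each library had its own animal number and counted as a replicate. Libraries of a group differed by a chi-square per gene of 26.0 to 79.2, above sampling noise. Permutation p-values set a group difference against the spread between these animals. The p-values, SEs and intervals of limma also draw on the variance trend over all tested genes. For genes as variable as Myl2 and Myl3 they can be smaller or narrower than the gene's own spread alone would give. Named genes were the 8 members, the listed light chains, kinases, phosphatase subunits, heavy chains and troponins, and the nearest profiles. Heart sarcomere genes, Cnn1 and Csrp3 were picked after their values were seen. The members and lists were chosen with earlier results of these data known. Myl12b had no length here and has no value per kilobase.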

Additional observations from a re-analysis of the deposited data

Results flagged for a closer look

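LoxP control replicate 3 had a slow share of the essential light chain, 0.149%, far above the other 3 controls at 0.00538% to 0.0208%. The gap to the nearest control was 0.893 of the whole range of the group, above Dixon's 95% critical value for 4 samples. The share was examined in percent, and the log2 values of Myl3, examined with the same limit, were not flagged. Chance alone passes this limit in about 1 in 20 groups of normally distributed values, and 20 groups were examined. The same library had the highest Myh2 and the highest ratio of Myl3 to Myl2.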

How the results depend on the processing

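The count of called genes was 2 under each alternative, and 0 of the 8 members was called in any. Across the alternatives the median log2 difference of all tested genes lay between -0.00573 and 0.0104, and the lowest limma adjusted p of a member was 0.8999, in the fit with no filter. Log2 differences (Acot2 mKO minus loxP control) that turned sign were 0.053 for Myl1 with quantile normalization, 0.0063 for Mylk2 with library weights, and, without loxP control replicates 2 and 3, -0.038 for Mylpf. Without Acot2 mKO replicates 3 and 4 the log2 differences were 0.073 for Myl1, -0.23 for Myl2, -0.0082 for Myl6b, 0.090 for Mylk2 and 0.14 for Mylk4, and the share differences -0.0096 (regulatory) and -0.018 (essential) percentage points. For Myl2 and the shares this follows from leaving out the libraries with most of the slow chains. For Myl1, Mylk2 and Mylk4 these were the lowest Acot2 mKO libraries, so leaving them out raises the difference by construction. For Myl6b, Acot2 mKO replicate 4 was the highest library of its group, at 41.8 normalized reads. Leaving it out lowers the difference by construction, and without it alone the log2 difference was -0.013.

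Leaving out each replicate in turn gave log2 differences of -0.138 to 0.034 for Myl1, -0.026 to 0.070 for Mylpf, -0.188 to 0.230 for Myl6b, -0.052 to 0.068 for Mylk2, 0.91 to 2.74 for Myl2, 1.27 to 3.25 for Myl3, -0.147 to -0.026 for Myl6 and -0.311 to -0.0087 for Mylk4, and share differences of 0.0618 to 0.269 (regulatory) and 0.0566 to 0.262 (essential) percentage points. Shares with the length of all annotated exons, chosen after seeing the data, differed by 0.124 and 0.221 percentage points. With a mean of at least 100 normalized reads, Myl6b could not be fitted because it was too low. Depth limits Myl6b in every library, Myl2 in 5 libraries and Myl3 in 4, where they held under 100 reads.

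The labels give no shared replicate numbers. A replicate block over adjacent animal numbers (correlations of deviations -0.083 to 0.188 over 4 pairs) called 2 genes and none of the members, gave 1 member, Myl3, an unadjusted limma p of 0.027 (adjusted p = 0.9945, higher in Acot2 mKO in 4 of 4 pairs), and 4 of 8 libraries were most like the animal of their own pair; in the paired sign-flip test the share differences were 0.195 (exact p = 0.25) and 0.187 (exact p = 0.125), where 0.125 is the smallest p that 4 pairs allow.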
